A study of Mus musculus with 8 samples.

Results

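Type I interferons are alerts that cells release on meeting viral nucleic acid, and the genes described here are those that such an alert turns on in most cell types. A panel of 38 such genes was listed by symbol. Of these, 36 had a probeset (the array's set of probes for a transcript) that the platform annotation pairs with a single symbol, out of 19938 genes measured that way. Isg15 and Ifi44 had none and are named only. Each of the 36 rested on 1 probeset.

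The panel was read in 8 Affymetrix arrays, 1 per culture of mouse CD4+ T cells, in 4 groups of 2 biological replicates: Tet2-/- Th17, WT Th17, Tet2-/- Th1 and WT Th1 cells. All cultures started from naive C57BL/6 cells of spleen and lymph node, sorted as CD25-, CD62L high and CD44 low, and were activated through CD3 and CD28. Th17 cultures received TGF-β1 at 0.5 ng/ml together with IL-6 at 10 ng/ml, while interferon-γ and IL-4 were blocked by antibodies. Th1 cultures received IL-12 at 10 ng/ml together with IL-2 at 30 U/ml, while IL-4 was blocked. Whether IL-23 or IL-1β was added to these Th17 cultures is not stated in the labels. Tet2 encodes a dioxygenase that starts the removal of methyl groups from DNA, and the study asks what its loss does to gene expression in these helper cells. The cells in which the allele was deleted, the age of the mice and whether each culture came from its own animal are not given in the sources used here, so p values measure the spread between these cultures. Cell type and culture medium differ together between Th17 and Th1 cells and cannot be told apart.

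Type I interferons bind a receptor of Ifnar1 and Ifnar2, whose kinases Jak1 and Tyk2 activate Stat2. Stat2 and Irf9 are parts of the complex ISGF3, which binds the interferon-stimulated response element (ISRE) in the promoters of its target genes. Interferon-γ, the hallmark cytokine of Th1 cells, uses another receptor and acts largely through the gamma-activated sequence (GAS). Many panel genes answer to both interferons, so their levels do not tell which interferon acted. In T cells the response limits virus growth and also shapes proliferation and survival.

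Some of the panel's promoter windows hold the core letters of the element. RefSeq windows on build GRCm38.p6, from 250 bases before to 50 bases after each gene's start, were available for 26 of the 36 genes, some of which have more than 1 start and so more than 1 window. A gene was counted if any of its windows held the letters. The ISRE core, written GAAANNGAAA and searched on both strands, stood in 10 of the 26 genes (38.5%), against 3.89% of the 15614 measured genes with a window. The GAS core TTCNNNGAA, which reads the same on both strands, stood in 7 of the 26 (26.9%), against 8.99%. The cores overlap in Bst2 and Ifitm3. A match is a description of the letters only. In Ifitm3, Ifih1, Eif2ak2 and Ddx58 every ISRE core lies after the listed start. The windows shown, each at the first start listed, are those of Oas3, Ifitm3, Ifih1 and Eif2ak2, which were lower in WT Th17 than in WT Th1 cells, and of Ddx58 and Ifit1, which hold the same core and were not called lower. Each reads 5′ to 3′ on the gene's strand, with ISRE cores in capitals; where the core lies on the opposite strand, as in Ddx58 and Ifit1, the capitals show its complement.
Oas3, minus strand, chr5:120777610-120777909: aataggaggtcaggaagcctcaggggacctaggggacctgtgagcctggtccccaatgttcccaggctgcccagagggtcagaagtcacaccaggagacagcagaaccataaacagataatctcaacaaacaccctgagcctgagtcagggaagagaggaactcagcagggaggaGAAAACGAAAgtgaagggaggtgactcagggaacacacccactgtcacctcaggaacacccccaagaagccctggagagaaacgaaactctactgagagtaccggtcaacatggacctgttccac
Ifitm3, minus strand, chr7:141010695-141010994: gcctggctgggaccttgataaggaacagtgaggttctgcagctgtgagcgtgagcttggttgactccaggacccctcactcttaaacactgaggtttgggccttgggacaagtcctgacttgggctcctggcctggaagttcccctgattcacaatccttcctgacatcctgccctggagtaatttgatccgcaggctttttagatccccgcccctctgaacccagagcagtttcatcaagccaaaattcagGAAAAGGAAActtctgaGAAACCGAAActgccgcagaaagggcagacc
Ifih1, minus strand, chr2:62646206-62646505: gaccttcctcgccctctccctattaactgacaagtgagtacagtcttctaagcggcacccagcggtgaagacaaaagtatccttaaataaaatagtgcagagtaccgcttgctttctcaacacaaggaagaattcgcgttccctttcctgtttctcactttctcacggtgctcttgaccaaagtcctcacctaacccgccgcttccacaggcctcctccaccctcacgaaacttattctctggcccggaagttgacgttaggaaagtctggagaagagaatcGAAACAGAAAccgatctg
Eif2ak2, minus strand, chr17:78882523-78882822: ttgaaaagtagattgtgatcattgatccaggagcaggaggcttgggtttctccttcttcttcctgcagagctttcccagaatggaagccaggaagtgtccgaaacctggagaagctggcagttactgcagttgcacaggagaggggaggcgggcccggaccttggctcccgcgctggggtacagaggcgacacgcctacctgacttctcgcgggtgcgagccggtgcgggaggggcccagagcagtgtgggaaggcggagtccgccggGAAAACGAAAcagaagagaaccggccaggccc
Ddx58, minus strand, chr4:40239776-40240075: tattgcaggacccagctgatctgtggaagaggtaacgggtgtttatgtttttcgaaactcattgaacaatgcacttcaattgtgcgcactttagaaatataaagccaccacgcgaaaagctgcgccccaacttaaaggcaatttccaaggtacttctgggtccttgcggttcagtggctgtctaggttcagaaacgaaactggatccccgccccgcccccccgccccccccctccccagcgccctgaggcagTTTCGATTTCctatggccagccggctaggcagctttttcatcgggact
Ifit1, plus strand, chr19:34640639-34640938: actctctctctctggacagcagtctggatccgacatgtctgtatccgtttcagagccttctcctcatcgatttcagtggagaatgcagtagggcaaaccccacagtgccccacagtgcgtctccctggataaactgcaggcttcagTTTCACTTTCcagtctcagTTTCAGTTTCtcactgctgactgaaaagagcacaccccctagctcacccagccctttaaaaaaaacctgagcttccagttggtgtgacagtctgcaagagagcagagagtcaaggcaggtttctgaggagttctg
The other windows with the ISRE core were those of Bst2, Ifit3, Rsad2 and Stat2. Of the 10 genes with the core, 4 were called lower in WT Th17 than in WT Th1 cells, against 4 of the 16 whose windows lacked it and 3 of the 10 without a window. Of all genes, 3.17% were called lower in that comparison.

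Some facts of the whole data set bear on every value below. Values are log2 intensities, so a difference of 1 is a doubling, and array medians lay between 6.47 and 6.53. Tet2 read 8.37 and 8.42 in Tet2-/- Th17 cells, 8.53 and 8.51 in WT Th17 cells, 8.12 and 7.97 in Tet2-/- Th1 cells and 8.14 and 8.03 in WT Th1 cells. The labels do not place the deletion, and these values are no check of the genotypes. CD4 T cell markers read 8.67 to 12.21, all 4 Th17 markers (Il17a, Il17f, Il23r, Ccr6) were higher in Th17 than in Th1 cells in both genotypes, and 3 of 4 Th1 markers (Ifng, Tbx21, Il12rb2) were lower. The Th17 arrays differed in sex-linked transcripts. Xist, the transcript of the inactive X chromosome, read 8.62 and 11.3 in Tet2-/- Th17 cells and 5.20 and 10.1 in WT Th17 cells, against 4.83 to 5.11 on the Th1 arrays. Y-linked genes had a mean of 8.71 and 4.85 in Tet2-/- Th17 cells and 8.80 and 7.82 in WT Th17 cells. Results are therefore also given without the Th17 arrays of highest and lowest Y-linked level (WT replicate 1 and Tet2-/- replicate 2). The Th17 arrays that remain read 10.1 (WT) and 8.62 (Tet2-/-) for Xist, above every Th1 array. In the comparisons between cell types, Xist signal and cell type then still differ together and cannot be told apart.

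Panel levels ran from a mean of 5.01 for Samd9l to 9.70 for Sp100 over the 8 arrays. The helicase Ifih1, the sensor Zbp1, the complex members Irf9 and Stat2 and the ubiquitin ligase Dtx3l all lay above 8 on average. Below the lowest array median lay the means of 11 genes, namely Mx1, Oas2, Oasl2, Ifit1, Ifit2, Ifit3, Rsad2, Cmpk2, Rtp4, Dhx58 and Samd9l. The Ifit genes, Rsad2 and Mx1 are among the classic effectors that interferon raises. The files used here hold no detection calls, so whether such dim probesets stood above background was not tested. Levels of different probesets also depend on their probes, so the order of genes is not a ranking of transcripts.

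Across the arrays, the panel stood lowest in WT Th17 cells and highest in Th1 cells. The median deviation of the 36 genes from their own means was -0.09 and -0.08 in Tet2-/- Th17 cells, -0.26 and -0.17 in WT Th17 cells, 0.15 and 0.09 in Tet2-/- Th1 cells, and 0.23 and 0.11 in WT Th1 cells. The same median over all genes stayed within 0.02 of 0 on each array. The 2 Tet2-/- Th17 arrays lay between the WT Th17 arrays and the Th1 arrays, and the 2 Th1 genotypes overlapped. In such bulk cultures, fewer cells that express a gene and less of its RNA per cell cannot be told apart.

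**Figure D1:**
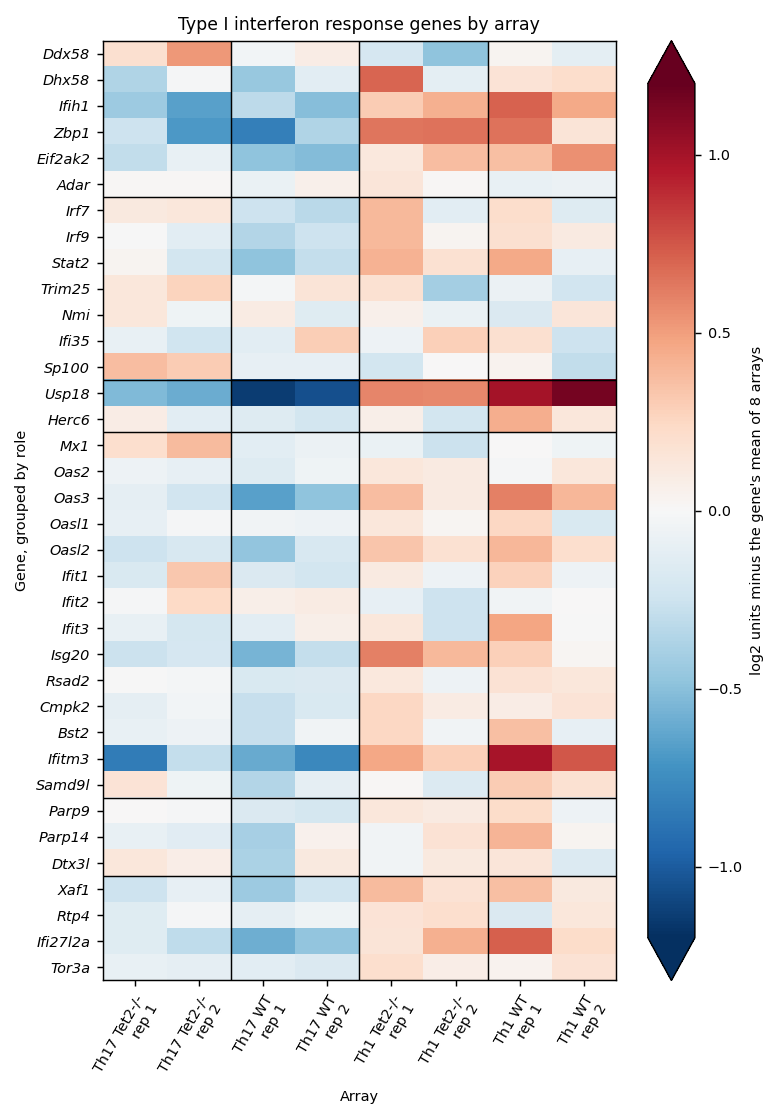
Deviation of each of the 36 interferon response genes from its mean over the 8 arrays, in log2 units, by array (columns) and gene (rows, grouped by role). Usp18, Ifitm3, Oas3, Ifih1 and Zbp1 separate the Th17 arrays on the left from the Th1 arrays on the right, while Adar and Nmi show little difference between arrays.

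The first question is how the interferon panel differs between the helper cell types. In WT cells 11 of the 36 genes were lower in Th17 than in Th1 cells and 0 were higher, as called by limma at an adjusted p under 0.05. Usp18, which strips ISG15 from proteins and damps the interferon receptor, was 4.51-fold lower, the virus entry blocker Ifitm3 was 2.94-fold lower and the RNA-sensing synthetase Oas3 was 2.10-fold lower. Called lower were 30.6% of the panel, against 3.17% of all genes, and 5.3% of all genes were called higher. Over the panel the median difference was -0.33, with 30 of 36 genes lower, against -0.01 over all genes. Without WT Th17 replicate 1 the call fell to 6 genes, without WT Th1 replicate 1 it also fell to 6, and without the Th17 arrays of highest and lowest Y-linked level it was 6.

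Among the sensors of foreign RNA and DNA, 3 of 6 were called lower in WT Th17 cells, against 3.17% of all genes. They were Ifih1, Zbp1 and Eif2ak2. Ifih1, known as MDA5, detects long double-stranded RNA. It read 7.83 and 7.61 in Tet2-/- Th17 cells, 7.95 and 7.75 in WT Th17 cells, 8.57 and 8.69 in Tet2-/- Th1 cells and 8.97 and 8.72 in WT Th1 cells. Every Th17 array lay below every Th1 array. The difference in WT cells was -0.99 ± 0.137 (SE; adjusted p = 0.000712) and in Tet2-/- cells -0.91 ± 0.137 (adjusted p = 0.00111). Zbp1, a sensor of Z-form nucleic acid that can start cell death, read 8.64 and 8.20 in Tet2-/- Th17 cells, 8.07 and 8.53 in WT Th17 cells, 9.53 and 9.54 in Tet2-/- Th1 cells and 9.54 and 9.04 in WT Th1 cells. Here too the cell types did not overlap, with differences of -0.99 ± 0.197 in WT cells (adjusted p = 0.00841) and -1.11 ± 0.197 in Tet2-/- cells (adjusted p = 0.00329). The WT call was lost without WT Th17 replicate 1 (adjusted p = 0.0737), without WT Th1 replicate 1 (adjusted p = 0.0731) and without the Th17 arrays of highest and lowest Y-linked level (adjusted p = 0.0805).

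Eif2ak2, the kinase PKR that halts translation on binding double-stranded RNA, read 6.84 and 7.04 in Tet2-/- Th17 cells, 6.65 and 6.61 in WT Th17 cells, 7.26 and 7.50 in Tet2-/- Th1 cells and 7.49 and 7.68 in WT Th1 cells. Its Th17 values lay below its Th1 values on every array, and the difference was -0.96 ± 0.128 in WT cells (adjusted p = 0.000566) and -0.44 ± 0.128 in Tet2-/- cells (adjusted p = 0.0455). None of the other sensors was called lower in either genotype. Ddx58, known as RIG-I and a relative of Ifih1, read 8.02 and 8.35 in Tet2-/- Th17 cells, 7.79 and 7.92 in WT Th17 cells, 7.63 and 7.34 in Tet2-/- Th1 cells and 7.86 and 7.71 in WT Th1 cells. It was higher in Tet2-/- Th17 than in Tet2-/- Th1 cells by 0.70 ± 0.145 (adjusted p = 0.00834), while its WT values overlapped (0.07 ± 0.145, adjusted p = 0.808). Dhx58, which modulates both helicases, differed by -0.48 in each genotype (adjusted p = 0.194 in WT cells) on dim signal, and the RNA-editing enzyme Adar by 0.07 in WT cells (adjusted p = 0.78).

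Of the 7 signal transducers and transcription factors, 0 were called between the cell types in either genotype. Irf9, the DNA-binding part of ISGF3, read 8.22 and 8.10 in Tet2-/- Th17 cells, 7.87 and 7.98 in WT Th17 cells, 8.61 and 8.26 in Tet2-/- Th1 cells and 8.42 and 8.33 in WT Th1 cells. Each Th17 array was below the Th1 arrays of its genotype, but the WT difference of -0.45 ± 0.136 missed the threshold (adjusted p = 0.0603). It passed under 4 of the 17 alternatives run, with adjusted p from 0.0273 to 0.283 over all of them. Stat2, its partner, read 8.24 and 7.99 in Tet2-/- Th17 cells and 7.73 and 7.92 in WT Th17 cells. Its Th1 values were 8.63 and 8.39 in Tet2-/- cells and 8.66 and 8.11 in WT cells. Stat2 differed by -0.56 ± 0.175 in WT cells (adjusted p = 0.0694) and by -0.40 ± 0.175 in Tet2-/- cells (adjusted p = 0.185). The WT difference of Stat2 passed under 2 of its 17 alternatives, which ran from -0.83 to -0.28 with adjusted p from 0.014 to 0.373. Irf7, which drives interferon-α genes, differed by -0.32 ± 0.162 in WT cells (adjusted p = 0.251) and by 0.00 in Tet2-/- cells (95% interval -0.36 to 0.35). The RIG-I ligase Trim25, the Stat-binding protein Nmi, its partner Ifi35 and the nuclear body protein Sp100 had WT differences between -0.01 and 0.21.

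Within the ISG15 system the contrast was the widest of the panel. Usp18 read 7.27 and 7.21 in Tet2-/- Th17 cells, 6.66 and 6.75 in WT Th17 cells, 8.39 and 8.38 in Tet2-/- Th1 cells and 8.80 and 8.95 in WT Th1 cells. The 4 groups formed 4 separate levels with close replicates. Its difference between cell types was -2.17 ± 0.114 in WT cells (adjusted p = 2.45e-07) and -1.14 ± 0.114 in Tet2-/- cells (adjusted p = 5.14e-05). Herc6, in mice the main ligase that attaches ISG15, differed by -0.47 ± 0.141 in WT cells (adjusted p = 0.0579) and by 0.06 in Tet2-/- cells (adjusted p = 0.848).

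**Figure D2:**
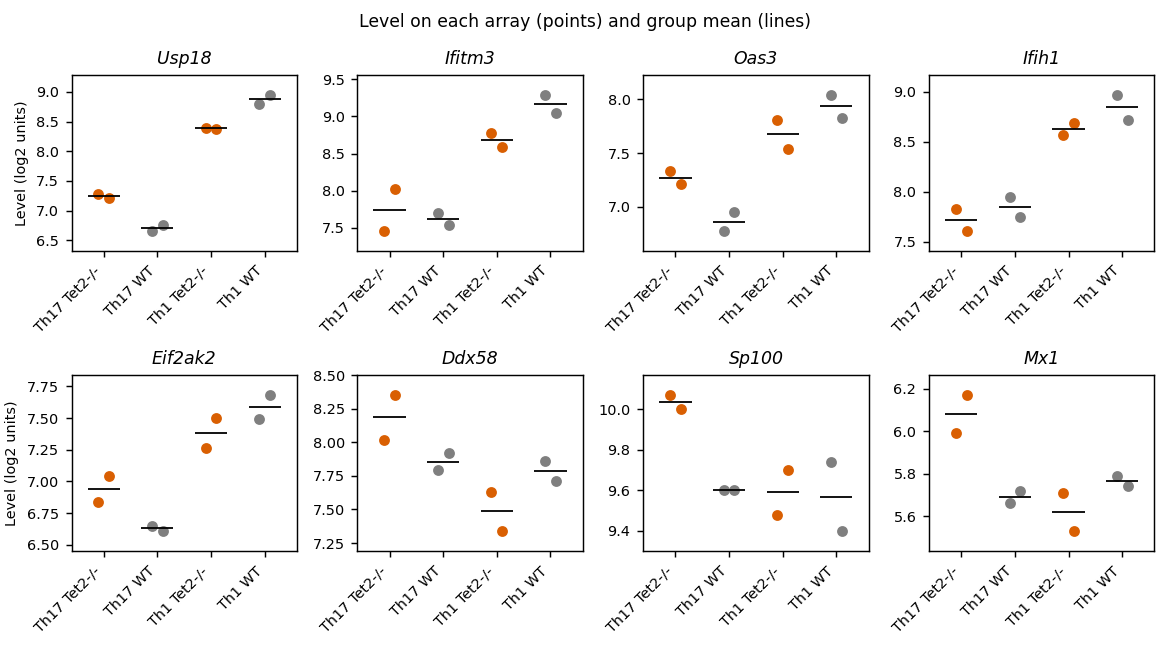
Log2 intensity of 8 interferon response genes on each of the 8 arrays; each dot is an array, grouped from left to right as Th17 Tet2-/-, Th17 WT, Th1 Tet2-/- and Th1 WT. Usp18 shows 4 separate levels from 6.66 to 8.95, whereas Sp100 and Mx1 stand higher in Tet2-/- Th17 cells than in the other groups.

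Of the 14 antiviral effectors, 5 were called lower in WT Th17 than in WT Th1 cells, against 3.17% of all genes. They were Ifitm3, Oas3, Oasl2, Isg20 and Samd9l. Ifitm3, which traps viruses in endosomes, read 7.46 and 8.02 in Tet2-/- Th17 cells, 7.70 and 7.53 in WT Th17 cells, 8.77 and 8.59 in Tet2-/- Th1 cells and 9.29 and 9.05 in WT Th1 cells. No Th17 array reached any Th1 array, and the differences were -1.56 ± 0.172 in WT cells (adjusted p = 0.000124) and -0.94 ± 0.172 in Tet2-/- cells (adjusted p = 0.00406). Oas3, which on binding double-stranded RNA makes the messenger that activates RNase L, read 7.33 and 7.21 in Tet2-/- Th17 cells, 6.78 and 6.95 in WT Th17 cells, 7.81 and 7.54 in Tet2-/- Th1 cells and 8.04 and 7.83 in WT Th1 cells. The cell types did not overlap, and the difference was -1.07 ± 0.133 in WT cells (adjusted p = 0.000324) and -0.40 ± 0.133 in Tet2-/- cells (adjusted p = 0.0763). Its relatives varied: Oasl2 was lower by a log2 difference of -0.63 in WT cells (adjusted p = 0.00904), while Oas2 differed by -0.16 and Oasl1 by -0.09 (adjusted p = 0.395 and 0.754). The exonuclease Isg20 was lower in both genotypes, at -0.58 in WT cells (adjusted p = 0.0224) and -0.72 in Tet2-/- cells (adjusted p = 0.0052). Samd9l, a restrainer of virus and of cell growth, was lower by -0.48 in WT cells (adjusted p = 0.0362), with its highest value on any array at 5.32. The Ifit genes, which bind viral RNA, did not pass, with Ifit1 at -0.31, Ifit2 at 0.10 and Ifit3 at -0.26 in WT cells. Rsad2 (viperin) and its chromosomal neighbour Cmpk2 read -0.34 and -0.36 (adjusted p = 0.0695 and 0.0592), and the virus tether Bst2 read -0.29 (adjusted p = 0.285).

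Mx1 is a dynamin-like block to influenza virus that in C57BL/6 mice carries a deletion and makes no working protein, though its transcript is still induced. It read 5.99 and 6.17 in Tet2-/- Th17 cells, 5.66 and 5.72 in WT Th17 cells, 5.71 and 5.53 in Tet2-/- Th1 cells and 5.79 and 5.74 in WT Th1 cells. The Tet2-/- Th17 arrays were the highest of the 8. Between cell types it was higher in Tet2-/- Th17 cells by 0.46 ± 0.113 (adjusted p = 0.0215) and differed by -0.07 ± 0.113 in WT cells (adjusted p = 0.738). That Tet2-/- call was lost without Tet2-/- Th17 replicate 2 (adjusted p = 0.162) and without Tet2-/- Th1 replicate 2 (adjusted p = 0.148). It was also lost in a fit with Y-linked signal as a covariate (adjusted p = 0.0765) and without the Th17 arrays of highest and lowest Y-linked level (adjusted p = 0.207).

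None of the 3 ADP-ribosylation genes was called, and 2 of the 4 remaining targets were called lower in WT Th17 cells, against 3.17% of all genes. Parp9 and its partner Dtx3l, neighbours of Parp14 on the chromosome, differed by -0.27 and -0.12 in WT cells, and Parp14 by -0.39 (adjusted p = 0.174 or more). Ifi27l2a, a small membrane protein gene, read 8.40 and 8.24 in Tet2-/- Th17 cells, 7.96 and 8.07 in WT Th17 cells, 8.70 and 8.97 in Tet2-/- Th1 cells and 9.26 and 8.77 in WT Th1 cells. Its Th17 arrays were all below its Th1 arrays, with a WT difference of -1.0 ± 0.162 (adjusted p = 0.00227) and a Tet2-/- difference of -0.51 ± 0.162 (adjusted p = 0.0657). Xaf1, which opposes the apoptosis inhibitor XIAP, was lower in both genotypes (-0.57, adjusted p = 0.0176 in WT cells; -0.45, adjusted p = 0.0443 in Tet2-/- cells). Rtp4 and Tor3a did not pass, at -0.06 and -0.26 in WT cells.

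In Tet2-/- cells, 8 of the 36 genes (22.2%) were lower in Th17 than in Th1 cells, against 3.29% of all genes. The 2 called higher, Ddx58 and Mx1, were 5.56% of the panel, against 7.14% of all genes. The 8 were Ifih1, Zbp1, Eif2ak2, Usp18, Oasl2, Isg20, Ifitm3 and Xaf1, and all of them were among the 11 called lower in WT cells (100% of the 8 and 72.7% of the 11). The median panel difference was -0.19, with 26 of 36 lower. The 10 calls became 5 without Tet2-/- Th17 replicate 1, 5 without Tet2-/- Th17 replicate 2 and 6 without Tet2-/- Th1 replicate 2. Without the Th17 arrays of highest and lowest Y-linked level they became 5.

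**Figure D3:**
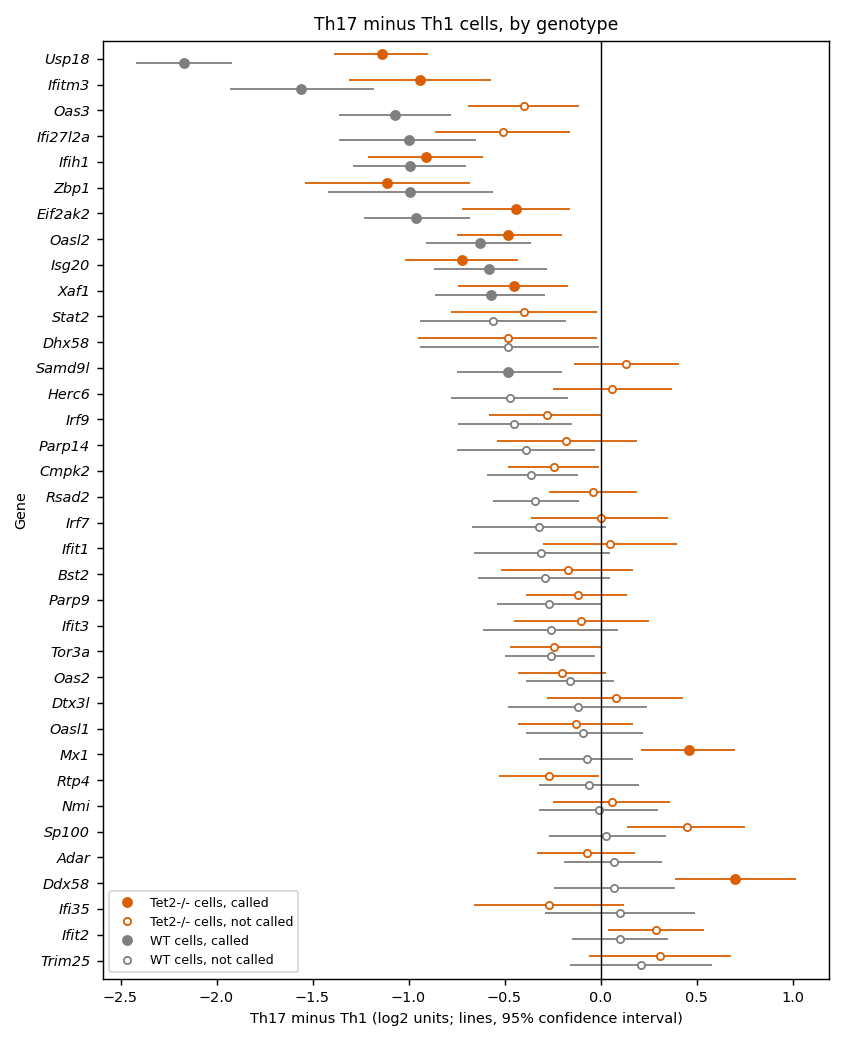
Th17 minus Th1 difference in log2 units for each of the 36 genes, in Tet2-/- cells and in WT cells, with 95% confidence intervals from limma; filled dots passed an adjusted p under 0.05. Usp18 lies farthest left in both genotypes at -1.14 and -2.17, and Ddx58 and Mx1 lie right of 0 in Tet2-/- cells.

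The second question is what the loss of Tet2 does to the panel in Th17 cells. Tet2-/- Th17 cells showed higher values for most panel genes, but the shifts were small and 0 of 36 genes were called by limma, as were 0.0% of all genes. Usp18 was 1.45-fold higher (0.54 ± 0.114, unadjusted p = 0.000464, adjusted p = 0.592). By direction, 32 of 36 genes were higher, with a median difference of 0.16, against 0.02 over all genes. At an unadjusted p under 0.05, 8 genes (22.2%) were higher, against 2.81% of all genes, and 0 were lower, against 1.44%. Both Tet2-/- arrays stood above both WT arrays for 17 genes (47.2%), against 19.9% of all genes, and below for 0, against 13.3%. The median was 0.09 without WT Th17 replicate 1, 0.25 without WT Th17 replicate 2 and 0.08 without the Th17 arrays of highest and lowest Y-linked level.

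The 8 genes were Usp18, Mx1, Sp100, Oas3, Irf7, Eif2ak2, Samd9l and Ddx58, which belong to 4 of the 6 roles. Mx1 differed by 0.39 ± 0.113 (adjusted p = 0.764), from the values given above. Sp100, a component of nuclear bodies that silence incoming viral genomes, read 10.07 and 10.00 in Tet2-/- Th17 cells, 9.60 and 9.60 in WT Th17 cells, 9.48 and 9.70 in Tet2-/- Th1 cells and 9.74 and 9.40 in WT Th1 cells. The Tet2-/- Th17 arrays were above all the others, and the difference from WT Th17 cells was 0.44 ± 0.141 (adjusted p = 0.92). Another probeset that lists Sp100 together with other symbols was not used here. Irf7 read 6.68 and 6.70 in Tet2-/- Th17 cells, 6.31 and 6.24 in WT Th17 cells, 6.95 and 6.44 in Tet2-/- Th1 cells and 6.77 and 6.41 in WT Th1 cells. Its Th17 genotypes were separate (0.41 ± 0.162, adjusted p = 0.999), while its Th1 replicates were far apart and the Th1 genotypes overlapped. Oas3 differed by 0.41 ± 0.133 (adjusted p = 0.956) and Eif2ak2 by 0.31 ± 0.128 (adjusted p = 0.999).

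Both Irf9 and Stat2 had higher means in Tet2-/- Th17 cells without passing, with Irf9 at 0.23 ± 0.136 and Stat2 at 0.28 ± 0.175 (adjusted p = 0.999 for each). By role, 5 of 6 sensors, 6 of 7 transducers and factors, both ISG15-system genes, 13 of 14 effectors, all 3 ADP-ribosylation genes and 3 of 4 others had a higher mean. The 4 genes with a lower mean were Ifih1 at -0.13, Ifi35 at -0.24, Ifit3 at -0.13 and Rtp4 at 0.00 after rounding. Markers of Th17 cells and of other cells also differed in mean in the same comparison, but limma called none of them. Adjusted p was 0.0689 or more in the stromal list and 0.178 or more in the NK list. Over all genes, 56.6% had a higher mean (median 0.02). All 4 Th17 markers had a lower mean in Tet2-/- than in WT Th17 cells (median -0.25). Of the 10 myeloid markers, 8 had a higher mean and 2 a lower one (median 0.08). Of the 5 B cell markers, 2 had a higher mean and 3 a lower one (median -0.02). All 8 stromal markers had a higher mean in Tet2-/- Th17 cells (median 0.17), and the mean log2 level of that list was 7.11 to 7.18 in Tet2-/- Th17 cells, against 6.80 to 6.90 in WT Th17 cells. The matrix gene Lum read 8.13 and 8.00 in Tet2-/- Th17 cells and 6.98 and 7.10 in WT Th17 cells. The NK receptor gene Klrd1 read 7.29 and 8.10 in Tet2-/- Th17 cells and 6.34 and 6.56 in WT Th17 cells. It had the largest difference of the 6 NK markers; 4 of the 6 had a higher mean and 2 a lower one (median 0.12), and 4 read below 6 on every array. The part of the cells behind these markers in the panel's shift was not tested. The plasmacytoid dendritic cell list, whose cells are the main makers of interferon-α, had a mean of 6.29 to 6.32 in Tet2-/- Th17 cells and 6.35 to 6.40 in WT Th17 cells.

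In Th1 cells the panel was split in direction on loss of Tet2. The median difference was 0.01, as over all genes, with 19 of 36 higher, and limma called 0 genes of the panel. The median was -0.14 without WT Th1 replicate 2 and -0.09 without Tet2-/- Th1 replicate 1. By role, all 7 transducers and factors, 3 of 6 sensors, 2 of 3 ADP-ribosylation genes and 3 of 4 others had a higher mean in Tet2-/- Th1 cells, while both ISG15-system genes and 10 of 14 effectors had a lower one. In this comparison 0.00502% of all genes, a single gene, Ifng, was called. At an unadjusted p under 0.05, 4 panel genes were lower, against 2.97% of all genes, and 1 was higher, against 2.77%. Both Tet2-/- arrays stood below both WT arrays for 10 genes (27.8%), against 14.4% of all genes, and above for 3 (8.33%), against 18.3%.

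The 4 lower genes were Usp18, Ifitm3, Herc6 and Samd9l, and the higher one was Isg20. Usp18 was 1.40-fold lower in Tet2-/- Th1 cells (-0.49 ± 0.114, unadjusted p = 0.000997, adjusted p = 0.824), and its replicates in each genotype did not overlap. Ifitm3 differed by the same -0.49 with a larger error (± 0.172, adjusted p = 0.824). Herc6 read 7.18 and 6.89 in Tet2-/- Th1 cells and 7.55 and 7.25 in WT Th1 cells, a difference of -0.36 ± 0.141 (adjusted p = 0.827). Its genotypes came close to each other without overlapping. Samd9l read 5.03 and 4.85 in Tet2-/- Th1 cells and 5.32 and 5.19 in WT Th1 cells, the dimmest signal of the panel. Its Th17 values were 5.18 and 4.96 in Tet2-/- cells and 4.66 and 4.90 in WT cells. Isg20 read 8.24 and 8.02 in Tet2-/- Th1 cells and 7.92 and 7.66 in WT Th1 cells, a difference of 0.34 ± 0.138 (adjusted p = 0.833). Ddx58 differed by -0.30 ± 0.145 (adjusted p = 0.853) and Mx1 by -0.15 ± 0.113 (adjusted p = 0.905). Irf7, Irf9 and Stat2 had differences of 0.10, 0.07 and 0.12, and for each the sign turned when 1 Th1 array was left out.

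The third comparison asks whether the effect of Tet2 loss differed between the helper types. The median difference of effects (Th17 minus Th1) was 0.16, against 0.01 over all genes, and 28 of 36 genes were on the positive side. It was 0.07 without WT Th1 replicate 1 and without Tet2-/- Th1 replicate 2, 0.09 without WT Th17 replicate 1, 0.25 without WT Th17 replicate 2, 0.27 without Tet2-/- Th1 replicate 1 and 0.30 without WT Th1 replicate 2. Of the 36, 0 were called by limma, as were 0.0% of all genes. At an unadjusted p under 0.05, 8 genes were positive, against 2.93% of all genes, and 0 were negative, against 1.63%. Usp18 had a difference of effects of 1.03 ± 0.162 (unadjusted p = 3.11e-05, adjusted p = 0.194), followed by Oas3 at 0.67 ± 0.188, Ddx58 at 0.63 ± 0.205, Ifitm3 at 0.62 ± 0.243 and Samd9l at 0.61 ± 0.179 (adjusted p = 0.999 for each). The other 3 of the 8 were Mx1 at 0.53 ± 0.159, Herc6 at 0.53 ± 0.2 and Eif2ak2 at 0.51 ± 0.181 (adjusted p = 0.999 for each). For the factors the difference of effects was 0.31 for Irf7, 0.17 for Irf9 and 0.16 for Stat2.

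In 7 genes (19.4%) both Tet2-/- arrays were below WT in Th1 cells and above WT in Th17 cells, against 3.01% of all genes; the reverse pattern held for 0, against 1.81%. They were Ddx58, Usp18, Herc6, Mx1, Oas3, Rsad2 and Samd9l. Rsad2 read 5.46 and 5.44 in Tet2-/- Th17 cells, 5.28 and 5.29 in WT Th17 cells, 5.59 and 5.40 in Tet2-/- Th1 cells and 5.64 and 5.60 in WT Th1 cells. These shifts sat on dim signal, as did those of Mx1 and Samd9l. Another 17 genes were higher on average in Tet2-/- cells of both types, such as Zbp1 at 0.12 in Th17 and 0.24 in Th1 cells, and Isg20 at 0.19 and 0.34.

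**Figure D4:**
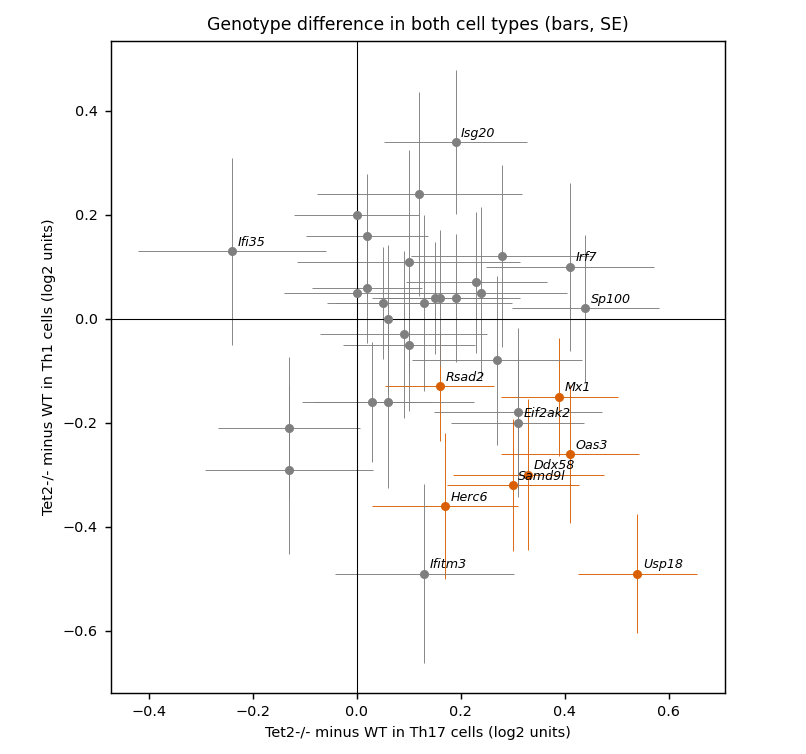
Tet2-/- minus WT difference in log2 units in Th17 cells (horizontal) against that in Th1 cells (vertical), 1 dot per gene for the 36 genes. The 7 genes below WT in Th1 cells and above WT in Th17 cells on both arrays are in orange. Among them Usp18 lies at 0.54 in Th17 cells and -0.49 in Th1 cells. Limma called none of the 36 in either cell type.

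Around the panel, 98 further genes of the interferon pathway were measured: ligands, receptors and their kinases, other interferon regulatory factors, upstream sensing genes and other induced genes. Of the 16 ligand genes, 7 read below 6 on every array. Ifnb1, the gene of interferon-β, read 4.49 to 5.10 on all 8 arrays. Other ligand genes read above the array medians, such as Ifna5 at 7.73 to 8.12, Ifnz at 7.70 to 8.84 and Ifnl2 at 8.36 to 8.87. All 16 ligand genes had a lower mean in WT Th17 than in WT Th1 cells (median -0.33, against -0.01 over all genes), as had 10520 of the 19938 genes. Limma called only 1 of the 16, Ifng, against 3.17% of all genes called lower. The differences of the others included values near 0, such as -0.03 for Ifne and -0.07 for Ifnb1. Ifng read 6.00 and 6.06 in Tet2-/- Th17 cells, 6.07 and 6.01 in WT Th17 cells, 10.43 and 10.18 in Tet2-/- Th1 cells and 11.56 and 11.89 in WT Th1 cells. In Th1 cells Ifng was lower in Tet2-/- than in WT cells by a log2 difference of -1.42 (adjusted p = 0.00391), and in WT cells it was lower in Th17 than in Th1 cells by -5.68 (adjusted p = 2.35e-10). Ifnab, an interferon-α family gene, differed by -0.69 between Tet2-/- and WT Th1 cells (adjusted p = 0.824) at levels of 5.46 to 6.41.

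Among 16 receptor and signalling genes, 2 were higher and 0 lower in WT Th17 than in WT Th1 cells. In Tet2-/- cells, 4 were higher and 1 lower in Th17 than in Th1 cells. The shares of all genes were 5.3% higher and 3.17% lower in WT cells, and 7.14% and 3.29% in Tet2-/- cells. Ifnar1 read 9.68 and 9.51 in Tet2-/- Th17 cells, 9.30 and 9.34 in WT Th17 cells, 9.19 and 9.25 in Tet2-/- Th1 cells and 9.10 and 9.25 in WT Th1 cells. It was highest in Tet2-/- Th17 cells, without a call against WT (0.28, unadjusted p = 0.043). Jak1 was higher in Th17 than in Th1 cells in WT cells (0.51, adjusted p = 0.0276) and in Tet2-/- cells (0.77, adjusted p = 0.00191). The interferon-γ receptor gene Ifngr2 was higher in Th17 cells as well, by 1.29 in WT cells (adjusted p = 9.49e-05). Ifnar2, Tyk2 and the inhibitor Socs1 had WT differences between the cell types of 0.42, -0.13 and 0.53, none of them called. Irf1, a factor that interferon-γ induces, was lower in Th17 than in Th1 cells by -1.05 in WT cells (adjusted p = 0.00557) and by -1.73 in Tet2-/- cells (adjusted p = 0.000126). Irf3, which starts interferon-β transcription, differed by 0.37 in WT cells without a call.

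Between the helper types, 22 of the 98 pathway genes were lower and 5 higher in Th17 than in WT Th1 cells, and 22 lower and 8 higher in Tet2-/- cells. In WT cells these were 22.4% lower and 5.1% higher, against 3.17% and 5.3% of all genes; in Tet2-/- cells they were 22.4% and 8.16%, against 3.29% and 7.14%. Iigp1, a GTPase gene that interferon-γ induces, read 5.16 and 5.30 in Tet2-/- Th17 cells, 5.43 and 5.30 in WT Th17 cells, 8.83 and 9.56 in Tet2-/- Th1 cells and 9.04 and 8.75 in WT Th1 cells. It differed by -3.53 in WT cells and -3.97 in Tet2-/- cells (adjusted p = 3.16e-07 and 1.06e-07). The guanylate-binding protein gene Gbp4 differed by -2.18 in WT cells, the immunoproteasome subunit gene Psmb9 by -1.28 and the factor gene Irf8 by -1.99, all called. Between genotypes, 1 of the 98 was called in Th1 cells, which was Ifng, and 0 in Th17 cells. The 4 with the smallest p in Th17 cells were Trim30a at 1.10 and Ifi209 at 0.73 (adjusted p = 0.73 for each), Ifngr1 at 0.46 (adjusted p = 0.742) and Oas1b at 0.47 (adjusted p = 0.746). Trim30a read 9.32 and 9.75 in Tet2-/- Th17 cells, 8.10 and 8.77 in WT Th17 cells, 10.22 and 10.31 in Tet2-/- Th1 cells and 10.76 and 9.81 in WT Th1 cells. In Th1 cells the next after Ifng were Ifnab, Gbp9 at 0.48, Irf2bp2 at 0.49 and Irgm1 at 0.44 (adjusted p = 0.824 for each). The median over the 98 genes was 0.05 in both genotype comparisons, against the panel's 0.16 in Th17 and 0.01 in Th1 cells.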

How the data were processed

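Deposited log2 values, 1 per probeset and array, were made by the authors; the submitters' processing notes name RMA and Partek without versions, and give neither a genome build nor a filter. The log base was inferred from the range, 2.71 to 14.1. Of 35556 probesets, 21789 had 1 symbol, 1621 several and 12146 none listed; 21698 were found in the RefSeq gene table. The probeset of highest mean was used for the 999 genes with more than 1, leaving 19938 genes, with no filter on low values. Group means of all 8 arrays were fitted with limma 3.58.1 in R 4.3.3 (lmFit, eBayes with intensity trend; 4 residual and 8.44 prior degrees of freedom). Tests were two-sided, adjusted over all genes by Benjamini-Hochberg and called under 0.05; errors beside differences are SE. The number of arrays limits the precision. The fit was tested on simulated data. The panel, the pathway and marker lists and the roles were chosen with earlier results of these data known. Array values were given for the 6 members of smallest p per genotype comparison, the 6 largest called changes between cell types in WT cells, and Usp18, Irf7, Irf9, Stat2 and Mx1 throughout; other members with array values were added where a sentence needed them. Pathway genes were a fixed set plus up to 4 of smallest p. Some items are not reported here. Promoters were counted by the exact letters given. Alternatives were other centring, quantile normalization, no trend, genes of below-median level left out, mean of probesets, only the arrays compared, a replicate block, Y-linked signal as a covariate and leaving out arrays. Python 3.11.15, pandas 2.3.3 and matplotlib 3.10.9 were used for counts and figures.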

Additional observations from a re-analysis of the deposited data

Results flagged for a closer look

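In 7 genes both Tet2-/- arrays lay below both WT arrays in Th1 cells and above both WT arrays in Th17 cells. The rule regards the order of unpaired arrays only, and some gaps were narrow. The nearest Tet2-/- and WT arrays read 5.59 and 5.60 for Rsad2 in Th1 cells. In Th17 cells they read 6.99 and 6.96 for Herc6 and 4.96 and 4.90 for Samd9l. Mx1, Rsad2 and Samd9l had means below the lowest array median. The difference of the genotype effects (Th17 minus Th1, log2) was 1.03 for Usp18 (adjusted p = 0.194), 0.67 for Oas3, 0.63 for Ddx58, 0.61 for Samd9l, 0.53 for Mx1, 0.53 for Herc6 and 0.29 for Rsad2 (adjusted p = 0.999 for the other six). The difference itself was tested with limma and passed for none of the 7, and 3.01% of all genes showed the same pattern. Under the alternatives run, the value for Usp18 lay between 0.95 and 1.10, with adjusted p between 0.14 and 0.849.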

How the results depend on the processing

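Over the alternatives run, 62 of the panel medians stayed near the value reported and 17 moved; 78 of the counts of called members stayed near it, 7 were lower and 1 was higher. In the genotype comparisons and their difference that count was 0 throughout. Counts of 0 in both fits were taken as staying near and are among the 78. Every count that changed was in a Th17 minus Th1 comparison. Leaving out 1 array at a time, the panel median (Tet2-/- minus WT) lay between 0.09 and 0.25 in Th17 cells and between -0.14 and 0.05 in Th1 cells, and the difference of effects between 0.07 and 0.30. The Th17 minus Th1 median lay between -0.25 and -0.11 in Tet2-/- cells and between -0.49 and -0.26 in WT cells, and was -0.26 in Tet2-/- cells and -0.42 in WT cells with genes of below-median level left out. Called members numbered 5 to 12 in Tet2-/- cells and 6 to 12 in WT cells with 1 array left out. Without the Th17 arrays of highest and lowest Y-linked level, they were 5 in Tet2-/- cells and 6 in WT cells, and the Tet2-/- minus WT median in Th17 cells was 0.08. With 1 array left out, the Tet2-/- minus WT difference in Th1 cells lay between -0.16 and 0.35 for Irf7, -0.11 and 0.24 for Irf9 and -0.15 and 0.40 for Stat2. The difference of effects then reached -0.01 to 0.34 for Irf9 and -0.11 to 0.44 for Stat2. Irf7 between cell types in Tet2-/- cells was 0.02 with arrays centred on their medians, 0.00 with quantile normalization and -0.26 to 0.25 with 1 array left out. The causes were not tested. Same-numbered replicates of different groups had correlations of their deviations from -0.189 (WT Th17 with WT Th1) to 0.0534 (Tet2-/- Th17 with WT Th1). The replicates of a group deviate from its mean by equal and opposite amounts, so these values cannot show which arrays shared a batch. Whether same-numbered or crossed replicates did so was not tested. With the replicate block, called members were 9 in Tet2-/- cells, 12 in WT cells and 0 in each genotype comparison. In WT arrays alone, chosen after seeing the data, the crossed pairing gave 17 called members and the same-numbered pairing 9. Low signal limits the 11 genes whose means lay below the lowest array median.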
